A study of Mus musculus with 8 samples.

Results

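Sprr1a, Atf3, Jun, Gap43, Sox11, Gadd45a, Stmn4 and Klf6 are genes of the nerve injury and regeneration response, and they are described here over 8 whole-transcript arrays. The RNA came, by its labels, from the cervical spinal cord, and the mice were C57BL/6 males, 6 weeks old. The 8 genes were picked by name as injury- and regeneration-associated genes of neurons, with earlier results of these data known. Each had 1 probe set that the platform annotation gives to that symbol alone, so taking the probe set with the highest mean over the 8 arrays left no choice, and all 8 were among the 16026 genes tested. The acupoint group received MPTP, a neurotoxin that destroys dopaminergic neurons, at 20 mg/kg daily for 4 weeks and had manual acupuncture at GB34, a point on the leg, and LR3, a point on the foot, in 14 sessions. The non-acupoint group received the same MPTP course and was needled on the same schedule at both hips. The MPTP group received MPTP without needling, and the control group received saline for 4 weeks. Each group had 2 arrays, called replicate 1 and replicate 2. Array titles carry mouse numbers, but the protocol counts more mice than arrays for the MPTP and control groups. It is therefore unclear whether RNA of several mice was pooled, and the p-values below cover the variation between arrays, which could be technical in part or whole. The labels describe restraint by hand with the needling only, so needling and handling cannot be told apart.

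When an axon is cut, stress signalling through the kinases DLK and JNK reaches the cell body and switches on transcription factors, among them ATF3, JUN, SOX11 and KLF6. Their targets include proteins of the growing axon such as GAP-43 and SPRR1A. These programs are strong in peripheral sensory neurons and motor neurons and weak in most neurons whose axons stay inside the central nervous system. In whole cord tissue, more cells of a type and more RNA per cell cannot be told apart.

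AP-1 dimers of JUN with FOS or ATF proteins bind short DNA elements. One of these, TGACATCA, is known from the promoter of Jun itself. Promoter windows from RefSeq (GRCm38.p6, 250 bases before to 50 after the gene's start) were found for 6 of the 8 genes, all but Gap43 and Stmn4. The letters TGACATCA, read on both strands, occurred in 4 of these 6 windows and in 3.62% of all 32851 windows. The Jun window is among the 4, and its hit was given by the choice of the element. The count is therefore a description and not a test. The 4 stretches below are shown because they hold this element, which is in capitals, each read 5′ to 3′ on the strand that carries it.
Sprr1a, chr3:92486065-92486104, minus strand: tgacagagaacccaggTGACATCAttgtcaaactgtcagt
Jun, chr4:95052244-95052283, minus strand: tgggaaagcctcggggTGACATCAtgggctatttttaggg
Sox11, chr12:27342737-27342776, plus strand, opposite to the gene: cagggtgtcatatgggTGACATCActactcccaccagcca
Klf6, chr13:5861354-5861393, plus strand: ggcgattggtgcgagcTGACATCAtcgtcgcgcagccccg

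The Sprr1a window is shown whole, because the same window also held the AP-1 letters TGACTCA at 2 places, both as the reverse complement TGAGTCA, starting 146 and 116 bases before the gene's start. The capitals mark TGACATCA and both TGAGTCA.
Sprr1a, chr3:92485832-92486131, minus strand: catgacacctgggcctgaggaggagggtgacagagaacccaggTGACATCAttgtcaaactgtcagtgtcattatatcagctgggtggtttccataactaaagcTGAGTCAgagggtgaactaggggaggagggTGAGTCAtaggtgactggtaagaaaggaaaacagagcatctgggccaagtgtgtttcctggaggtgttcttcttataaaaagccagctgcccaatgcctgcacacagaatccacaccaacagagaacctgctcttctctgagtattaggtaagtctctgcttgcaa
TGACTCA on either strand occurred in 5.2% of all windows, and of the 6 in that of Sprr1a. The CRE letters TGACGTCA (1.79% of all windows) and the KLF-type letters CCACACCC (3.56%) were in none of the 6. No motif overlapped another in these windows, and a match of letters is a description, not a measured binding site.

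Signals of markers of muscle, meninges and peripheral nerve differed between arrays. The mean log2 signal of 15 skeletal muscle markers was 6.99 and 5.63 on the acupoint arrays, 5.56 and 5.94 on the non-acupoint arrays, 5.86 and 5.80 on the MPTP arrays and 7.48 and 8.94 on the control arrays, in the order of replicates 1 and 2. Meningeal fibroblast markers (10 of 10 listed genes tested) ranged from 6.44 to 8.36 in the acupoint group, 6.81 to 7.34 in the non-acupoint group, 6.56 to 7.71 in the MPTP group and 6.80 to 8.34 in the control group, and Schwann cell markers (8 of 10) from 6.24 to 7.92, 6.34 to 6.55, 6.32 to 7.17 and 6.27 to 8.10 in the same order of groups. Acupoint replicate 1 and control replicate 1 were the highest on both lists. All 8 Hox genes listed for neck and upper trunk position were above the filter. Of 6 forebrain genes listed, 4 had a probe set of their own, and 2 of these were above the filter. They were Emx1, with a mean of 6.31 over the arrays, and Tbr1, with 4.45, while the Hox gene Hoxb4 averaged 6.08. Passing the filter alone therefore does not tell cord from forebrain.

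**Figure D1:**
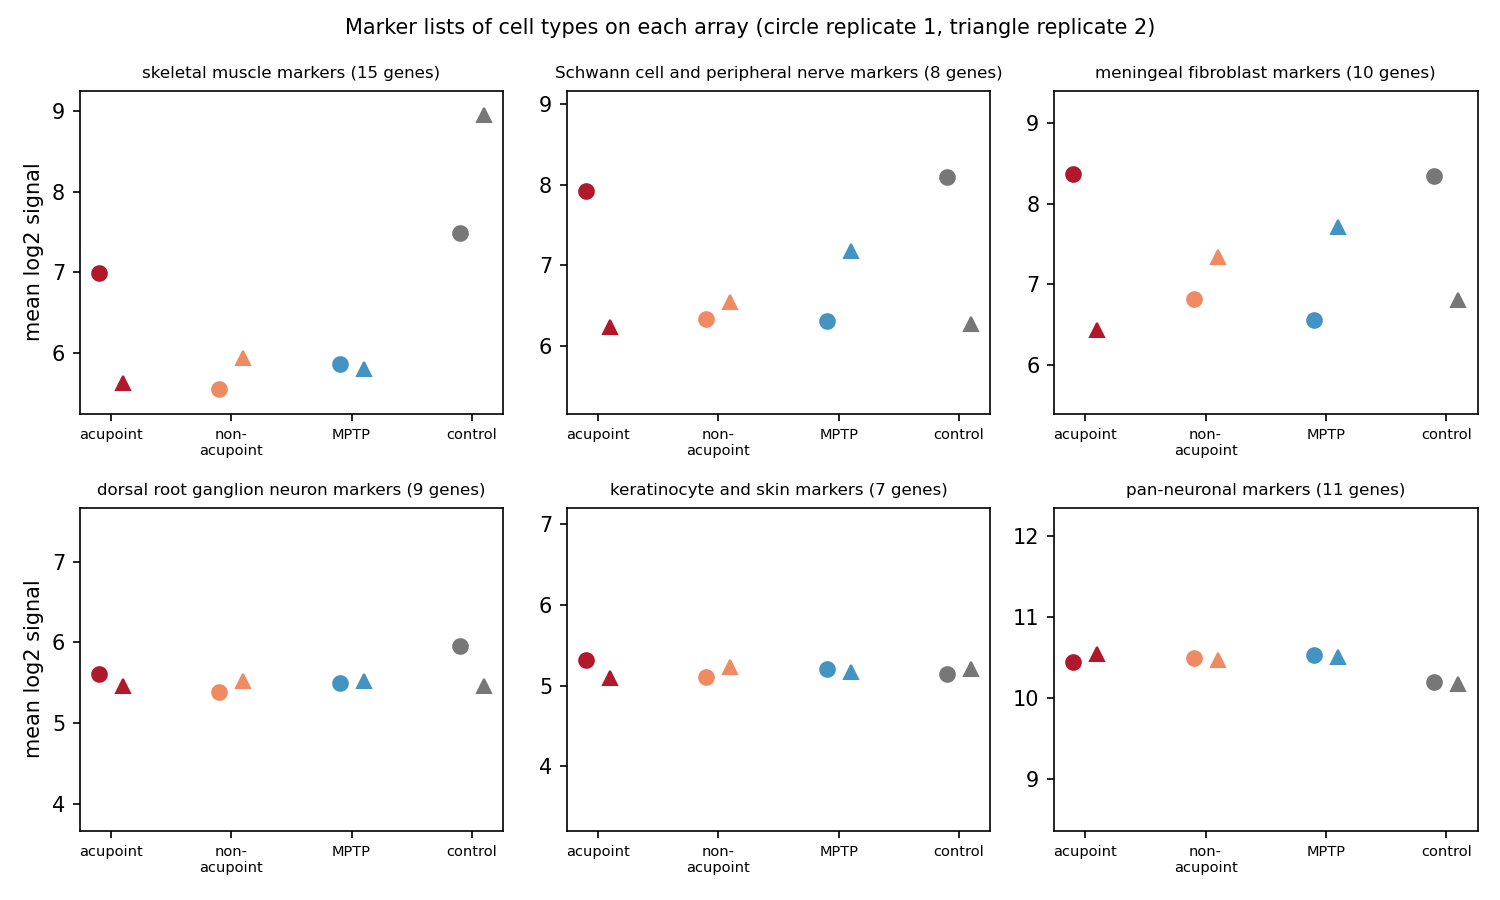
Mean log2 signal (vertical axis, a span of 4 in every panel) of 6 marker lists on each array, with groups along the horizontal axis, circles for replicate 1 and triangles for replicate 2. Muscle markers lie highest on both control arrays and on acupoint replicate 1, and keratinocyte and dorsal root ganglion lists do not separate needled from other arrays.

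Sprr1a encodes a small proline-rich protein of the cornified envelope of skin, which injured sensory neurons make in large amounts and which promotes axon outgrowth. Its log2 signal was 6.52 and 6.19 on the acupoint arrays, 6.67 and 6.46 on the non-acupoint arrays, 5.65 and 5.22 on the MPTP arrays and 5.16 and 4.97 on the control arrays. The probe set is dim: its mean of 5.85 was above that of 27.6% of the genes tested. The control values lie near the median of 4.75 of probe sets without a symbol on those arrays. All 4 needled arrays were above all 4 others, with no overlap between the needled groups and either MPTP or control. The lowest needled array exceeded the highest array without needling by 0.54, and this gap ranked 1 among the 16026 genes. Complete separation in this direction was seen for 217 genes, 1.35% of those tested, and among the 8 for Sprr1a and Jun. Sprr1a and Jun were already known from the acupoint and MPTP arrays when the list was drawn up, so their separation is a description.

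Relative to MPTP alone, the log2 difference of Sprr1a was 0.92 (SE 0.18) with acupoint needling and 1.13 (SE 0.18, 2.19-fold) with hip needling. The log2 difference of the mean of both needled groups from MPTP was 1.03 (SE 0.16, 95% interval 0.67 to 1.38), the third largest positive difference of all genes. Relative to control it was 2.45-fold higher in the acupoint group (log2 1.29, SE 0.18) and rose 2.83-fold in the non-acupoint group (log2 1.50, SE 0.18, limma adjusted p = 0.00233). Over the 19 alternative settings the log2 difference from control was 1.04 to 1.48 in the acupoint group and 1.39 to 1.68 in the non-acupoint group. Because Sprr1a was already known from the acupoint and MPTP arrays, every difference that uses those arrays is a description. Against MPTP, where no gene passed, the log2 difference of both needled groups stayed between 0.81 and 1.24. Without acupoint replicate 1, the array with more muscle, nerve and meningeal signal in that group, the acupoint difference from MPTP was 0.76 (SE 0.20).

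Between the MPTP and control groups the 2 arrays each of Sprr1a did not overlap, but the log2 difference of 0.37 (SE 0.18, limma adjusted p = 0.195) did not pass. It passed in 1 alternative, with arrays centred on their medians (0.53, adjusted p = 0.0481). The acupoint and non-acupoint groups overlapped, and their log2 difference was -0.21 with a 95% interval of -0.62 to 0.20.

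Of 14 other genes of the SPRR family, 3 were tested. They averaged 4.55 to 4.64 over the arrays, close to the filter at 4.30. Their log2 differences between both needled groups and MPTP were 0.12 for Sprr1b, -0.049 for Sprr2d and -0.047 for Sprr4 (SE 0.12 to 0.16), none past the threshold. Markers of keratinocytes and of dorsal root ganglion neurons, which make Sprr1a when injured, were followed. Keratinocyte markers (7 of 10 tested) averaged 5.09 to 5.32 in the acupoint group, 5.11 to 5.23 in the non-acupoint group, 5.17 to 5.20 in the MPTP group and 5.14 to 5.20 in the control group. Dorsal root ganglion neuron markers (9 of 14 tested) averaged 5.46 to 5.60, 5.38 to 5.52, 5.50 to 5.52 and 5.45 to 5.96 in the same order of groups. Among them Scn10a, Trpv1, Mrgprd and Avil averaged 4.63 to 4.76 over the arrays, close to the filter, which limits what this list can show. The median log2 difference of the 9 ganglion markers from MPTP was 0.03 in the acupoint group and -0.042 in the non-acupoint group, and that of the 7 keratinocyte markers -0.0078 and -0.051, with none of either list past the threshold. The part of such cells in the Sprr1a difference was not tested.

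**Figure D2:**
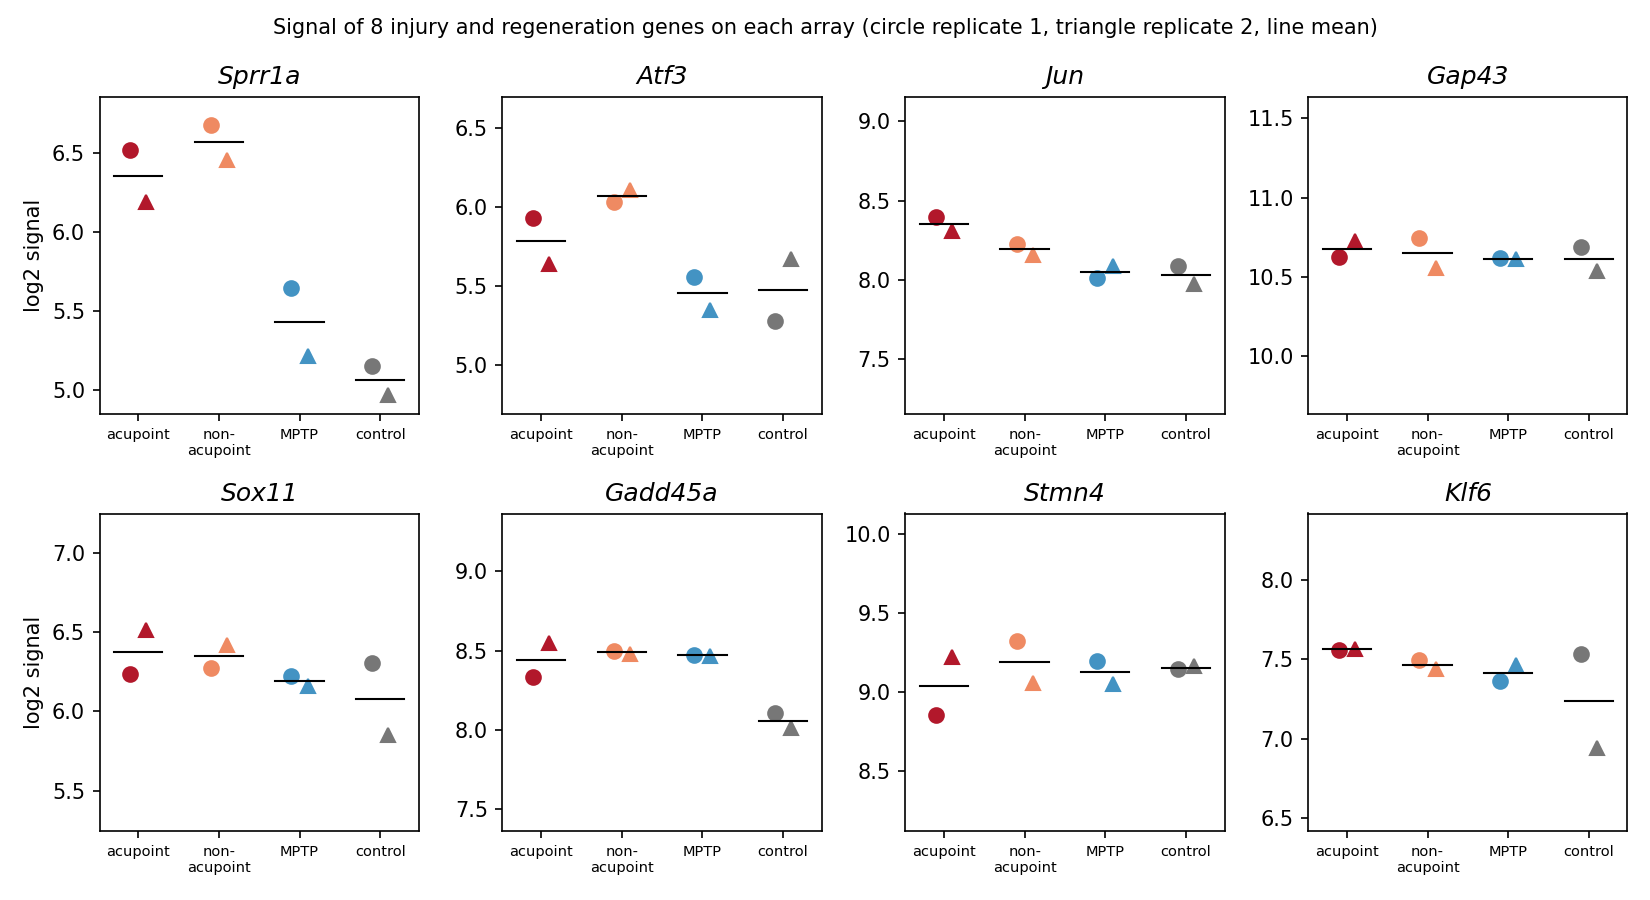
Log2 signal (vertical axis, a span of 2 in every panel) of each gene on each array, with groups along the horizontal axis, circles for replicate 1, triangles for replicate 2 and a line for the group mean. Sprr1a lies between 6.19 and 6.67 on the needled arrays and between 4.97 and 5.65 on the others, while Gadd45a is low on the control arrays only.

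Atf3 encodes a stress-induced bZIP transcription factor that is nearly silent in intact neurons and a standard marker of axon injury. Its log2 signal was 5.93 and 5.64 on the acupoint arrays, 6.03 and 6.11 on the non-acupoint arrays, 5.56 and 5.35 on the MPTP arrays and 5.28 and 5.67 on the control arrays. Both needled groups lay above MPTP without overlap, the non-acupoint group also lay above control, and the acupoint group overlapped control through control replicate 2.
Atf3 rose 1.51-fold in the non-acupoint group relative to control (log2 0.60, SE 0.17, limma adjusted p = 0.0365), a call kept in 13 of 19 alternatives and lost without control replicate 1 (0.40, adjusted p = 0.177), without either MPTP array, without either non-acupoint array and with the replicate block (adjusted p = 0.0581). The difference from control was 0.31 (SE 0.17, adjusted p = 0.276) in the acupoint group and did not pass. Relative to MPTP the log2 difference was 0.33 (SE 0.17) after acupoint needling and 0.62 (SE 0.17) after hip needling, and 0.47 (95% interval 0.15 to 0.80) for both needled groups together, the 22nd largest positive difference of all genes. MPTP and control differed by -0.02 (SE 0.17), a value that changed sign with the scaling. The needled groups differed from each other by -0.29 for acupoint minus non-acupoint (95% interval -0.66 to 0.09), without passing.

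Jun encodes c-JUN, the AP-1 subunit that JNK phosphorylates after axon injury. Its log2 signal was 8.40 and 8.31 on the acupoint arrays, 8.23 and 8.16 on the non-acupoint arrays, 8.01 and 8.09 on the MPTP arrays and 8.09 and 7.98 on the control arrays. The groups stood in the order acupoint, non-acupoint, then MPTP and control together, and the lowest needled array exceeded the highest other array by 0.07. Relative to MPTP the log2 difference was 0.30 (SE 0.09) after acupoint needling and 0.14 (SE 0.09) after hip needling, and 0.22 (95% interval 0.05 to 0.39) for both. Relative to control it was 0.32 (SE 0.09) in the acupoint group, past the threshold in the fit to all arrays and in 5 of 19 alternatives, and 0.16 (SE 0.09, adjusted p = 0.229) in the non-acupoint group. With arrays centred on their medians the non-acupoint value was 0.33, beside a median of 0.22 over all genes, and passed (adjusted p = 0.045), while after cyclic loess it was 0.04 (adjusted p = 0.792). Acupoint minus non-acupoint was 0.16 (95% interval -0.04 to 0.36), without passing. Because Jun was already known from the acupoint and MPTP arrays, its differences that use those arrays are a description.

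Sox11 and Klf6 encode transcription factors that promote axon growth in several types of neuron. Sox11 signal was 6.24 and 6.51 on the acupoint arrays, 6.27 and 6.42 on the non-acupoint arrays, 6.23 and 6.16 on the MPTP arrays and 6.31 and 5.85 on the control arrays. The needled arrays were above both MPTP arrays and overlapped control through control replicate 1. The log2 difference of both needled groups from MPTP was 0.17 (95% interval -0.16 to 0.49). Klf6 signal was 7.56 on both acupoint arrays, 7.49 and 7.44 on the non-acupoint arrays, 7.36 and 7.46 on the MPTP arrays and 7.54 and 6.94 on the control arrays. The spread between the 2 control arrays was larger than any difference between group means of Klf6. Its log2 difference from control was 0.32 (SE 0.16) in the acupoint group, 0.23 (SE 0.16) in the non-acupoint group and 0.17 (SE 0.16) in the MPTP group, none past the threshold. Without control replicate 1 these became 0.62, 0.52 and 0.47 and passed (adjusted p = 0.0186, 0.0235 and 0.0347). Control replicate 2, with the highest muscle signal of all arrays, then stood alone for the controls. Without control replicate 2 they were 0.03, -0.071 and -0.12, so the direction of the Klf6 difference rests on which control array is used.

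Gap43 encodes a growth cone protein that links membrane signals to actin. Its log2 signal was 10.63 and 10.73 on the acupoint arrays, 10.74 and 10.55 on the non-acupoint arrays, 10.62 and 10.61 on the MPTP arrays and 10.69 and 10.54 on the control arrays. Its range over all 8 arrays was 0.21, the narrowest of the 8 genes. The 95% interval of its difference between both needled groups and MPTP was -0.12 to 0.21, and between MPTP and control -0.19 to 0.20. The sign of the difference between MPTP and control changed with the scaling for Gap43, as it did for Jun. Stmn4 encodes a neuronal stathmin that binds tubulin. Its signal was 8.86 and 9.22 on the acupoint arrays, 9.32 and 9.06 on the non-acupoint arrays, 9.20 and 9.05 on the MPTP arrays and 9.15 and 9.16 on the control arrays, so all 4 groups overlapped. The 95% interval for both needled groups minus MPTP was -0.26 to 0.24.

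Gadd45a encodes a small protein induced by DNA damage and other stress, and also by axon injury in sensory neurons. Its log2 signal was 8.34 and 8.55 on the acupoint arrays, 8.50 and 8.48 on the non-acupoint arrays, 8.47 and 8.47 on the MPTP arrays and 8.10 and 8.01 on the control arrays. All 6 MPTP-treated arrays were above both control arrays, with or without needling. Gadd45a rose 1.33-fold after MPTP relative to control (log2 0.41, SE 0.09, limma adjusted p = 0.0173), 1.30-fold in the acupoint group (log2 0.38, SE 0.09, adjusted p = 0.0299) and 1.35-fold in the non-acupoint group (log2 0.43, SE 0.09, adjusted p = 0.0133), and these 3 comparisons share the control arrays. The MPTP call was lost without control replicate 2 (0.37, adjusted p = 0.0996), MPTP replicate 1 (0.41, adjusted p = 0.139) or MPTP replicate 2 (0.42, adjusted p = 0.121), and the acupoint call in 11 of 19 alternatives, among them every single array left out except acupoint replicate 1. The non-acupoint call was lost without control replicate 2 (0.39, adjusted p = 0.0808) or either non-acupoint array. Both needled groups together differed from MPTP by -0.0061 (95% interval -0.19 to 0.17). Muscle markers averaged higher on both control arrays than on every MPTP-treated array, the direction opposite to Gadd45a. Astrocyte markers (8 of 8), pan-neuronal markers (9 of 11) and microglia markers (7 of 10) rose after MPTP relative to control, as Gadd45a did. So did motor neuron markers (5 of 8) and oligodendrocyte markers (3 of 7 tested). The part of these markers, and of the higher signal of probe sets without a symbol on the control arrays, in the Gadd45a difference was not tested.

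**Figure D3:**
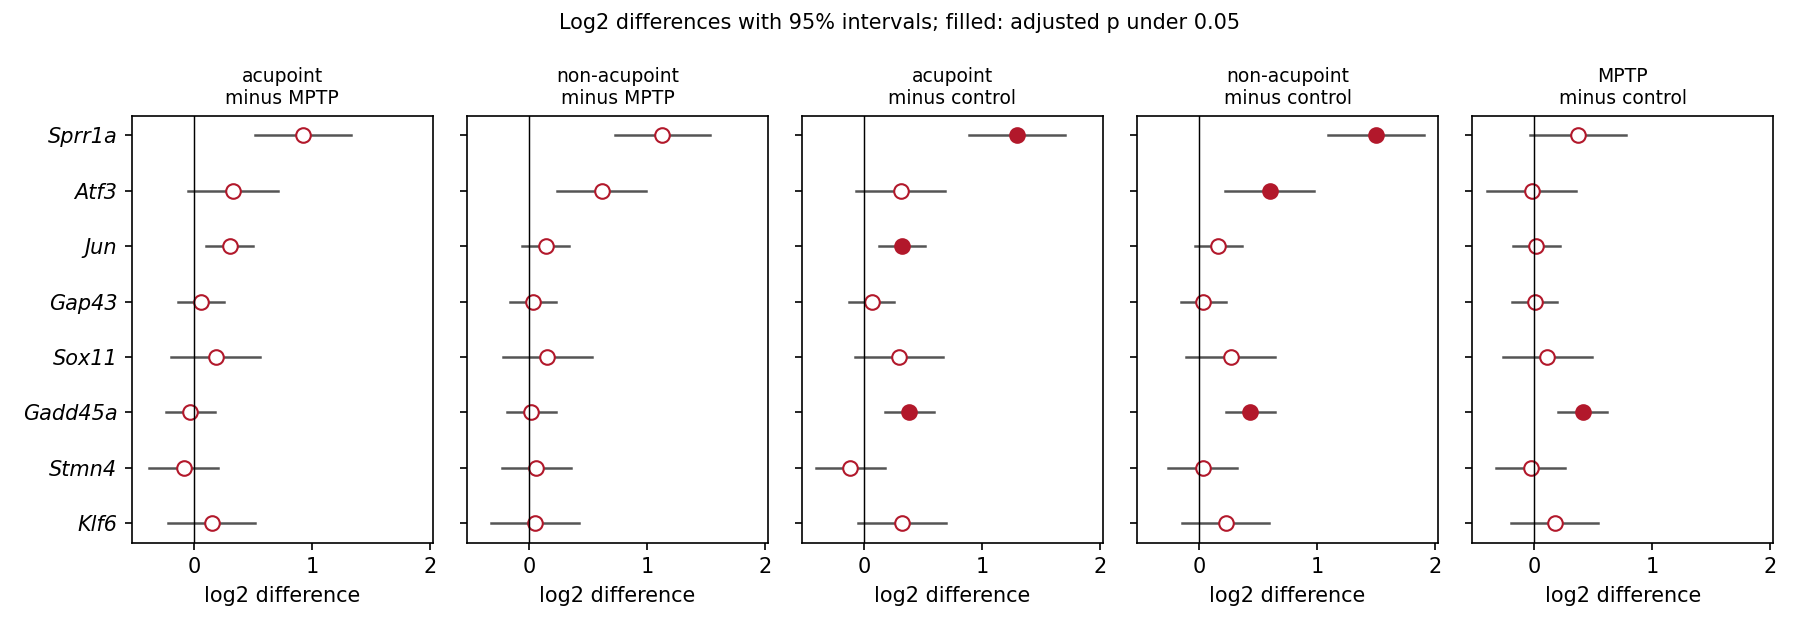
Log2 difference of each gene (horizontal axis) with its 95% interval in 5 comparisons, and filled points for an adjusted p under 0.05. Sprr1a is the largest difference in both comparisons with MPTP and in both of needled groups with control, and Gadd45a is filled in all 3 comparisons with control.

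Counted over the 8 genes, 3 were higher in the acupoint group than in control (Sprr1a, Jun and Gadd45a), where 9.55% of all genes tested were called higher. In the non-acupoint group 3 were higher than in control (Sprr1a, Atf3 and Gadd45a), beside 15.4% of all genes, and 1 was higher in the MPTP group (Gadd45a), beside 13.7%. None of the 8 was called lower, beside 2.17%, 3.87% and 3.1% of all genes in the same comparisons. With MPTP as the comparison, limma called 0% of the genes for either needled group or both together, and an unadjusted p under 0.05 was reached by 201 genes (1.25%, 2 of the 8) after acupoint needling, 273 (1.7%, 2 of the 8) after hip needling and 141 (0.88%, 3 of the 8) for both together. Arrays did not overlap in the higher direction for 6 of the 8 after acupoint needling (12.3% of all genes), 5 of the 8 after hip needling (17.1%) and 4 of the 8, Sprr1a, Atf3, Jun and Sox11, for all 4 needled arrays (3.72%). Some of these margins were very small. The lowest acupoint array of Gap43 was 10.625 and its highest MPTP array 10.620. For Gadd45a the lowest non-acupoint array was 8.481 and the highest MPTP array 8.475. Relative to control, arrays did not overlap in the higher direction for 4 of the 8 in the acupoint group (33.2% of all genes), 4 in the non-acupoint group (40.2%) and 2 in the MPTP group (41.9%). Between the acupoint and non-acupoint groups 0% were called, and 604 genes (3.77%, none of the 8) had an unadjusted p under 0.05. The median log2 difference of the 8 from MPTP was 0.17 after acupoint needling and 0.10 after hip needling, beside -0.0098 and -0.0062 over all genes. From control it was 0.32 and 0.25, beside 0.06 and 0.05. The 2 genes under 0.05 after acupoint needling were Sprr1a and Jun, the genes already known from those arrays. The acupoint counts and medians beside MPTP and control, and the pooled counts, therefore partly restate how the list was made. Those after hip needling beside MPTP share the MPTP arrays of that choice, and Sprr1a was under 0.05 there too. Nothing is read from any of the counts and medians of needled groups. These comparisons share the MPTP or control arrays.

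Genes of the wider injury response, listed by role, were set beside the 8. No listed gene passed in a comparison of needled groups with MPTP. The counts below stand beside 13.7% of all genes called higher and 3.1% called lower in MPTP minus control. Markers of muscle, astrocytes, microglia, oligodendrocytes, motor neurons and neurons in general moved in the same comparison, and their part was not tested. Among 14 injury transcription factors tested, 1 rose and 1 fell after MPTP relative to control: Ets2, an ETS family factor, rose by 0.40 (SE 0.11), and Jund, an AP-1 subunit, fell by 0.32 on the log2 scale (SE 0.08). Fos, a partner of JUN, rose in the acupoint group relative to control (0.52, SE 0.13, limma adjusted p = 0.0302), while relative to MPTP it was 0.15 (SE 0.13) in the acupoint group and -0.23 (SE 0.13) in the non-acupoint group, neither past the threshold. Of 14 genes of JNK and DLK signalling, 2 rose and 1 fell after MPTP: Mapk10, the neuronal JNK3, rose by 0.35 (SE 0.08), the JNK scaffold gene Spag9 rose by 0.26 (SE 0.07), and Mycbp2, whose product promotes degradation of DLK, fell by 0.39 (SE 0.09). The 2 of 14 that rose are a share near that of all genes. In the acupoint group, which had the same MPTP course, 0 of the 14 passed relative to control. There Mapk10 was at 0.26 (limma adjusted p = 0.0593) and Mycbp2 at -0.28 (adjusted p = 0.082). In the non-acupoint group, also given that course, 3 of the 14 were higher than in control, Mapk10 and Spag9 among them. Mycbp2 was the 1 that was lower. Of all genes, 15.4% were called higher there and 3.87% lower. In MPTP minus control the median of the transcription factor list was 0.04 and that of the signalling list 0.11, beside 0.06 over all genes.

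Growth cone and cytoskeleton genes had the most calls of these lists. Of 16 tested, 6 rose and 1 fell after MPTP relative to control, with a list median of 0.15. The tubulin gene Tubb2b rose by 0.65 (SE 0.11), Dpysl2, which encodes the axon protein CRMP2, by 0.54 (SE 0.06) and the adhesion gene Chl1 by 0.49 (SE 0.09). The stathmins Stmn2 (0.29, SE 0.07) and Stmn3 (0.44, SE 0.10) rose as well, unlike Stmn4 at -0.03 (SE 0.13), a contrast between genes that was not tested. The median of the growth cone list between both needled groups and MPTP was 0.03. In MPTP minus control, 9 of 11 pan-neuronal markers and 5 of 8 motor neuron markers were higher.

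Among 12 injury-induced peptides and secreted factors 2 rose after MPTP, Adcyap1, the neuropeptide PACAP, by 0.71 (SE 0.13) and the neurotensin gene Nts by 0.67 (SE 0.18). Among 16 injury-induced receptors and effectors 4 rose and 1 fell: the small heat shock gene Hspb1 rose by 0.89 (SE 0.12), the calcium channel subunit Cacna2d1 by 0.49 (SE 0.13), and the galectin gene Lgals1 fell by 0.47 (SE 0.11). Of 11 genes of the p53 and GADD45 stress response 2 rose, Gadd45b, a paralog of Gadd45a, by 0.44 (SE 0.11) and the p53 inhibitor Mdm2 by 0.42 (SE 0.10). The shares of the peptide list and of the p53 and GADD45 list that rose were near that of all genes. Relative to control, 0 of the 11 stress genes passed in the acupoint group. In the non-acupoint group 3 of the 11 were higher than in control, beside 15.4% of all genes. Among them was a further paralog, Gadd45g (0.54, SE 0.15, limma adjusted p = 0.0373). The difference between comparisons was not tested. Medians of these 3 lists after MPTP were 0.23, 0.23 and 0.15, and between both needled groups and MPTP they were -0.0075, 0.02 and 0.03.

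**Figure D4:**
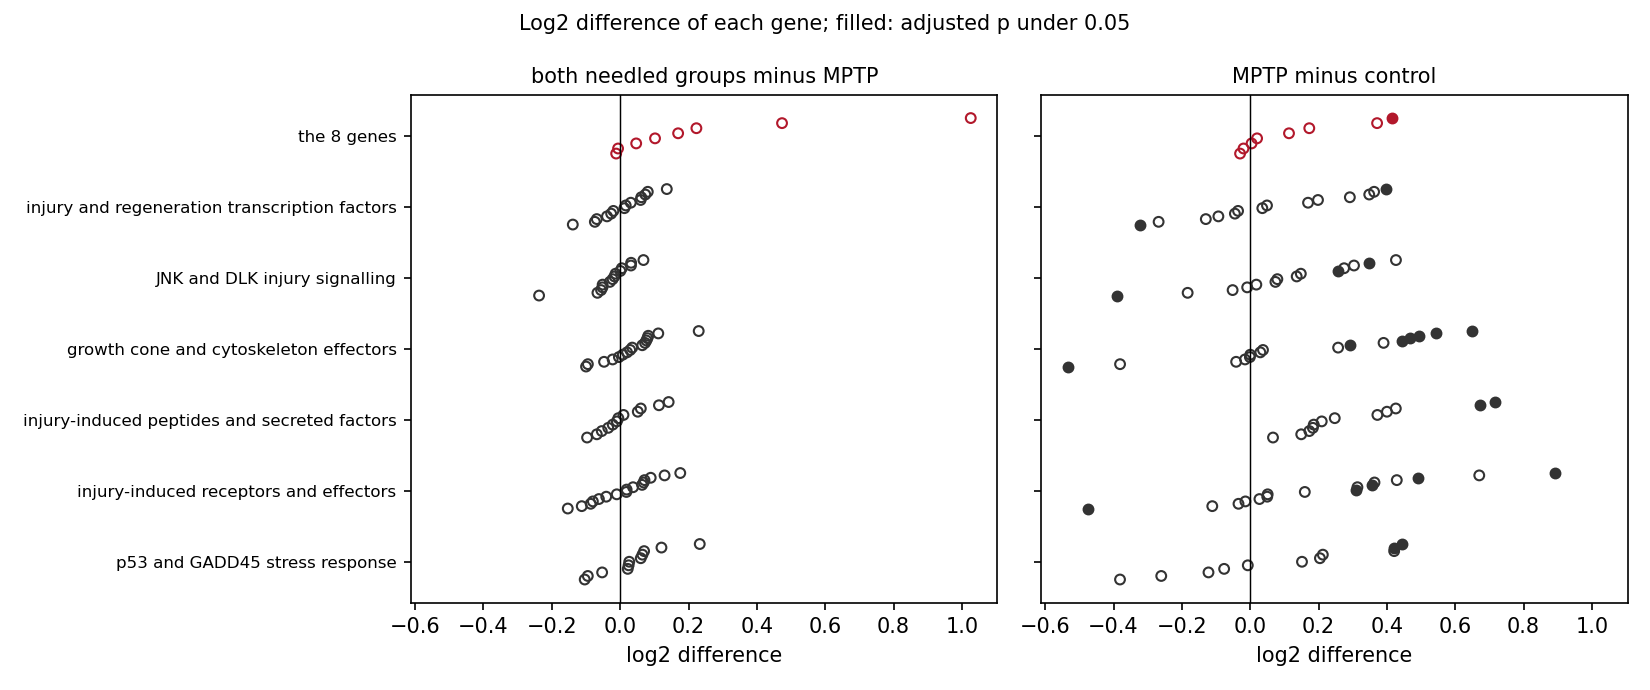
Log2 difference (horizontal axis) of each of the 8 genes and of each tested gene of 6 injury-response lists (rows), for both needled groups minus MPTP and for MPTP minus control, with filled points for an adjusted p under 0.05. The largest difference in the needled comparison is Sprr1a at 1.03, and no listed gene is filled there.

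The 8 genes did not share 1 profile. Over the 8 arrays, which fall in 4 groups, Sprr1a correlated with Atf3 (Pearson r 0.83, Spearman rho 0.69) and Jun (0.79 and 0.81), and with Stmn4 at -0.07 and 0.12, as a description. The genes whose arrays ran most like those of Sprr1a, among 11899 compared, were S100g, a calcium-binding protein gene (r 0.95, rho 0.98), and Cntn2, an axonal adhesion gene (0.94 and 0.98). For Atf3 they were Lifr, the receptor of leukaemia inhibitory factor (0.95 and 0.95), and Dmrt2 (0.93 and 0.93), for Jun Smad7 (0.95 and 0.95) and Sh3gl1 (0.95 and 0.98), and for Gadd45a Cct7 and Aasdhppt (both r 1.00, rho 0.98). They were Ska2 (0.98 and 0.95) and Adam17 (0.96 and 0.95) for Gap43, Csnk1g3 (0.99 and 0.98) and Nr1d2 (0.94 and 0.76) for Sox11, Eogt (0.97 and 0.83) and Smpd2 (0.96 and 0.93) for Stmn4, and Fkbp9 (0.98 and 0.86) and Ifit3 (0.97 and 0.90) for Klf6. Differences between both needled groups and MPTP were smaller for S100g (0.16, SE 0.11) and Cntn2 (0.13, SE 0.07) than for Sprr1a, and did not pass.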

How the data were processed

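The deposited table gives log2 signals of 35557 probe sets on 8 arrays, made by the authors with Affymetrix Expression Console and RMA per the submitters' processing notes (no versions given in the sources used here). That the logarithm has base 2 was inferred from how far the values range. RMA corrects background, normalizes across arrays and summarises probes on a log scale, and it understates fold changes of dim probe sets. Precision is limited by the number of arrays. No scan dates were used, so no batch was tested.

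Probe sets with 1 symbol (21789) and an average signal above 4.30, the 30th percentile, were kept, 1 per gene, which left 16026 genes. Group means were estimated from the 8 arrays jointly by limma 3.58.1 (R 4.3.3, eBayes with an intensity trend, 4 residual degrees of freedom). Two-sided p-values were adjusted by Benjamini-Hochberg within each of 7 contrasts, and an adjusted p under 0.05 was called. With 2 arrays against 2 an exact permutation test cannot go below p = 0.333. The fit was tested on simulated data. Genes named were the 8 members, up to 3 called genes per list by smallest p in MPTP minus control and, per member, the 2 genes with the highest Pearson r. Further list genes (Stmn2, Stmn3, Fos, Gadd45g, Klf2 and the SPRR genes) were chosen after their values were seen. The members and lists were chosen with earlier results of these data known. Alternatives were other scalings, filters, variance models, samples in the fit, averaging probe sets, the replicate number as a block, and arrays left out. Same-numbered deviations from group means correlated at -0.33 to 0.17 between groups. With 2 arrays a group this cannot settle whether replicate numbers pair the samples, and the main fit did not pair them. Plots were drawn with matplotlib 3.10.9.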

Additional observations from a re-analysis of the deposited data

How the results depend on the processing

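Of the 8 genes, 0 were called in either needled group or both against MPTP, or between needled groups, under all 19 alternatives. For MPTP minus control 1 was called, 2 with arrays centred on their medians, and 0 to 2 with single arrays left out. For acupoint minus control 3 were called, 1 after cyclic loess, without the trend, with only the groups compared and with the replicate block, and 1 to 2 with single arrays left out. For non-acupoint minus control 3 were called, 4 with arrays centred on their medians (Jun gained), 2 with the replicate block (Atf3 lost), and 1 to 3 with single arrays left out. Of all genes, 2696 were called in MPTP minus control (69 to 4246 over the alternatives), 1878 in acupoint minus control (135 to 4046) and 3083 in non-acupoint minus control (387 to 4637). Where 0 were called, the highest count was 3 for acupoint minus MPTP and 622 for acupoint minus non-acupoint, both without acupoint replicate 2, 13 for non-acupoint minus MPTP without non-acupoint replicate 1, and 1 for both needled groups minus MPTP without acupoint replicate 1. Centring arrays on their medians gave a median of all genes in MPTP minus control of 0.22, beside 0.06 as deposited, with Gadd45a at 0.57 and Sprr1a at 0.53.

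Small differences changed sign, all without a call, and the cause was not tested. In MPTP minus control, after a further quantile normalization Atf3 was 0.16, Jun -0.062 and Gap43 -0.045, after cyclic loess 0.042, -0.098 and -0.15, and after centring Atf3 was 0.14 and Stmn4 0.13. Without control replicate 2 and acupoint replicate 1 together Atf3 was 0.17, Jun -0.035, Gap43 -0.0704, Sox11 -0.11 and Klf6 -0.12. In acupoint minus MPTP that setting gave Gadd45a 0.074 and Stmn4 0.098, in both needled groups minus MPTP Gadd45a 0.046 and Stmn4 0.0804, in acupoint minus control Stmn4 0.076, and in non-acupoint minus control Gap43 -0.037 and Klf6 -0.071. Gadd45a in both needled groups minus MPTP was 0.0038 after quantile normalization and 0.0033 after cyclic loess. In acupoint minus control Gap43 was -0.056 after cyclic loess and Stmn4 0.017 after centring. In non-acupoint minus control Gap43 was -0.045 and Stmn4 -0.072 after quantile normalization, and -0.14 and -0.12 after cyclic loess.

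With single arrays left out, MPTP minus control ranged from -0.21 to 0.17 for Atf3, -0.035 to 0.075 for Jun, -0.0704 to 0.078 for Gap43, -0.11 to 0.34 for Sox11, -0.12 to 0.47 for Klf6 and -0.10 to 0.042 for Stmn4. Acupoint minus MPTP ranged from -0.14 to 0.074 for Gadd45a and -0.27 to 0.098 for Stmn4, non-acupoint minus MPTP from -0.062 to 0.13 for Gap43 and -0.069 to 0.19 for Stmn4, and both needled groups minus MPTP from -0.00041 to 0.094 for Gap43, -0.058 to 0.046 for Gadd45a and -0.10 to 0.0804 for Stmn4. Acupoint minus control ranged from -0.0096 to 0.14 for Gap43 and -0.30 to 0.068 for Stmn4, and non-acupoint minus control from -0.058 to 0.13 for Gap43, -0.071 to 0.52 for Klf6 and -0.099 to 0.16 for Stmn4.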

Other observations

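Klf6 was the only member of its family among the 8 genes. Of the other KLF family genes, 15 of 16 were tested, and their median log2 difference was -0.16 in the acupoint group, -0.14 in the non-acupoint group and -0.19 in the MPTP group relative to control, beside 0.06, 0.05 and 0.06 over all genes. Klf9, which glucocorticoids induce and which restrains axon growth in cultured neurons, rose by 0.28 (SE 0.08) after MPTP and by 0.35 (SE 0.08) in the non-acupoint group relative to control (limma adjusted p = 0.0439 and 0.0193). In the acupoint group the log2 difference of Klf9 from control was 0.26 (SE 0.08), without passing. Klf2, an endothelial regulator, fell by 0.54 (SE 0.15) in the non-acupoint group relative to control (limma adjusted p = 0.0381). Its log2 difference from control was -0.45 (SE 0.15) in the acupoint group and -0.34 (SE 0.15) in the MPTP group, neither past the threshold. None of the 15 was called against MPTP.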
